A study of Mus musculus with 3 samples.

Results

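The Ly6 genes encode small surface antigens of blood cells. The members described here are Ly6a, Ly6c1, Ly6c2, Ly6d, Ly6e and Ly6k, chosen by name through their NCBI Gene IDs. They are 6 of the 16742 genes listed in at least 1 of 3 RNA-seq libraries, and all 6 were listed in the control library. RNA-seq was performed on the bone marrow of the murine model of TBLR1-RARα (TR), an oncogenic fusion of the corepressor component TBLR1 with retinoic acid receptor α that gives rise to promyelocytic leukemia. The control library was made from lin- cells, the cells left after depletion of mature lineages, of wild-type C57BL/6 mice. The leukemia libraries TR1 and TR9 came from sorted GFP+ cells of C57BL/6 mice of the TBLR1-RARa genotype, in which a retrovirus carries the fusion together with GFP. According to the methods, these were leukemia mice of the third generation of transplantation, and TR1 and TR9 are named after the primary mouse from which each came. Each library pooled 3 mice aged 6 to 8 weeks and there was 1 library per condition, so no value has a replicate and no spread between mice can be given. Control cells came from lineage depletion and TR cells from a GFP sort, and the cell preparation and the genotype cannot be told apart. Pooled RNA also cannot tell a larger share of cells of a type from more RNA per cell.

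Ly6 proteins carry a compact, disulfide-rich three-finger fold, and most are tied to the outer face of the membrane by a glycosylphosphatidylinositol (GPI) anchor. Many are used as markers of maturation. Ly6a, or Sca-1, marks mouse stem and early progenitor cells and is induced by interferon in many lymphocytes, and Ly6c marks monocytes, plasma cells, subsets of T cells, and endothelium. The Gr-1 antibody used to follow granulocytes binds Ly6g and also Ly6c. The counts of Ly6g were not analysed here.

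In GENCODE M21 (GRCm38) all 6 are protein-coding genes on chromosome 15 within 349.9 kb. Ly6d lies at chr15:74762056-74763620, Ly6k at chr15:74796874-74799986, Ly6a at chr15:74994877-74998031, Ly6c1 at chr15:75044018-75048830 and Ly6c2 at chr15:75108158-75111970, all on the minus strand. Ly6e, at chr15:74955051-74959905, is on the plus strand. Because RSEM divides a read among the genes it matches, the likeness of the members decides how far their counts can be separated.

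The Ly6c1 and Ly6c2 coding sequences (exons joined, sense strand, 5′ to 3′) are shown because these near-copies, with Ly6c2 far the larger, hold most of the Ly6 counts in TR1 and TR9. In control Ly6e held more. Of 396 bases each, 387 were the same (97.7%). The first 300 bases are printed, and capitals mark the 7 of the 9 differing positions that fall there.
Ly6c1: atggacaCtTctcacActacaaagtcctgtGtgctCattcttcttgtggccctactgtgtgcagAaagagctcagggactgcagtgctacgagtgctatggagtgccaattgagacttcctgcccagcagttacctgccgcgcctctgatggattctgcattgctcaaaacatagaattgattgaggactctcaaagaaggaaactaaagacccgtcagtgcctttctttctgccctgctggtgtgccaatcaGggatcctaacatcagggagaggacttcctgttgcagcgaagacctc
Ly6c2: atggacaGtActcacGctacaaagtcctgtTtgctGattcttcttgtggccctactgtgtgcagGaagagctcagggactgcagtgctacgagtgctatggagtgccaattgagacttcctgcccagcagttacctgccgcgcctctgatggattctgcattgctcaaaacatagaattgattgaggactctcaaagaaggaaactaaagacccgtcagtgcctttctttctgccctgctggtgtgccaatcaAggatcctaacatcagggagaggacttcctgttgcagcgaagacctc

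Counted from 1 at the A of the start codon, with the Ly6c1 base first, the differences were C8G, T10A, A16G, G31T, C36G, A65G, G254A, T327C and G376A. Between A65G and G254A the coding sequences were the same, so a read from that stretch carries nothing that assigns it. Of the 773 windows of 50 bases in the Ly6c2 transcripts, 252 (32.6%) occurred letter for letter in Ly6c1, and 90.3% came within 2 mismatches of a Ly6c1 window.

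The Ly6a and Ly6i coding sequences are shown because Ly6i, the neighbour of Ly6a on the chromosome, moved in the same direction. Of 405 bases each they shared 350 (86.4%). The first 300 are printed, with capitals at the 47 of the 55 differing positions that fall there.
Ly6a: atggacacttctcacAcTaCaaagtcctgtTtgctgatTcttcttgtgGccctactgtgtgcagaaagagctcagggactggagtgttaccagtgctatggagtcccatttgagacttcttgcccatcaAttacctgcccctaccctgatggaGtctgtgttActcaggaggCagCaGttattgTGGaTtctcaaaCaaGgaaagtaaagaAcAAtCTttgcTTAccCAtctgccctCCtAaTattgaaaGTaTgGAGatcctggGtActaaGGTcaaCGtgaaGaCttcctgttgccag
Ly6i: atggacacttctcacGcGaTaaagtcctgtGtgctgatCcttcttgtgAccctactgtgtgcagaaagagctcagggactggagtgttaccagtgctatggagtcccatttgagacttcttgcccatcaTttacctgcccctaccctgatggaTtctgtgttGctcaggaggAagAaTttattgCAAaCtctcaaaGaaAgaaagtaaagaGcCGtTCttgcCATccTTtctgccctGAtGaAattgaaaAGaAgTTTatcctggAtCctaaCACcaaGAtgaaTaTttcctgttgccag

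Here the differences are spread along most of the sequence. Of the Ly6a windows, 8.17% were shared letter for letter with Ly6c1, Ly6c2 or Ly6i and 29.1% came within 2 mismatches of another family gene, Ly6g included. Ly6g came as close to 6.34% of the Ly6c2 windows and 6.41% of the Ly6i windows, and what its reads add to their counts was not tested. Ly6e, Ly6d and Ly6k stood apart, with no window within 2 mismatches of any other Ly6 gene compared. Ly6a, Ly6c1 and Ly6c2 had counts that were not whole in any library, while each count above 0 of Ly6e, Ly6d and Ly6k was whole.

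**Figure D1:**
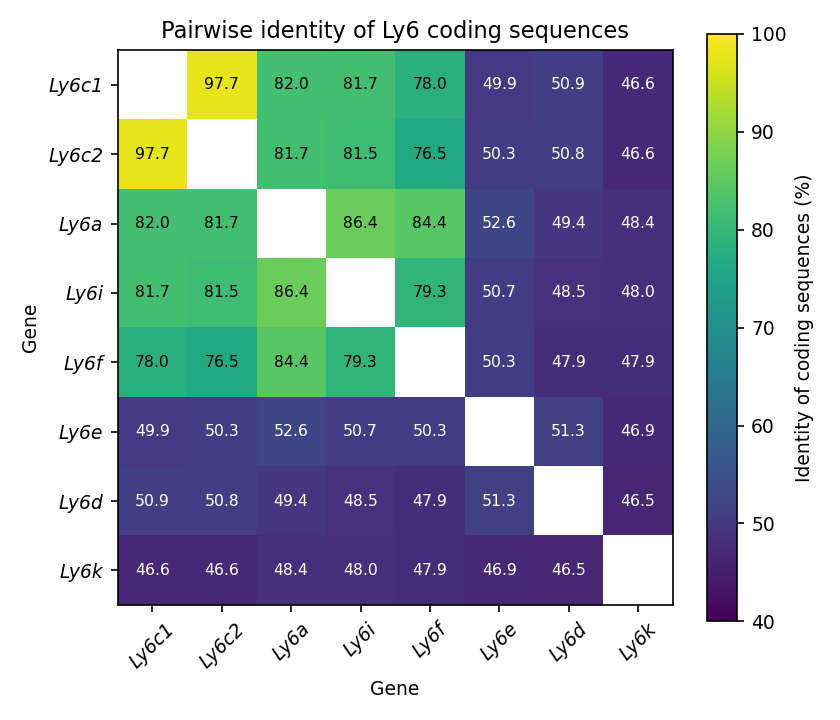
Identity of coding sequences between Ly6 genes, in percent of aligned columns, with each gene on both axes and the value written in each square. Ly6c1 and Ly6c2 form the closest pair at 97.7%, Ly6a and Ly6i stand at 86.4%, and Ly6d, Ly6e and Ly6k are far from the others.

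Sequencing depth was close in the 3 libraries, with 5129662 to 5571409 expected counts in total. A gene was called when a Poisson comparison of the counts of 2 libraries passed a false discovery rate of 0.001 and the ratio of FPKM (fragments scaled by transcript length and library total) was at least 1 in size on the log2 scale. Such a call compares the reads of 2 libraries, not the conditions. Intervals in parentheses are exact at 95% and cover counting error only. Between TR1 and control, 1317 of 16282 genes were called higher and 2120 lower, and the split depended on scaling, with 1694 higher and 1591 lower under TMM and 1062 higher and 2918 lower under TPM. Between TR9 and control 1527 were called higher and 1766 lower, against 1717 and 1503 under TMM and 1370 and 2064 under TPM. The median log2 ratio of all tested genes was −0.29 in TR1 and −0.12 in TR9, and TMM would move ratios up by 0.25 and 0.11, except those of genes held at the FPKM floor, such as Ly6d and Ly6k.

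Ly6 transcripts were more abundant in both leukemias, and most of the gain lay in Ly6c2. The share of all counts taken by the 6 members was 0.133% in the control library and rose to 0.696% (TR1) and 0.700% (TR9). Of the 6, 4 were called higher in TR1 (8.09% of all genes were) and 0 lower (13.0% of all genes). In TR9, 3 were called higher (background 9.37%) and 0 lower (10.8%). Ly6a, Ly6c1 and Ly6c2 were called higher in both, against 5.67% of all genes, and 0 members lower in both, against 8.39%. Ly6e was called in TR1 alone. Between TR9 and TR1, Ly6a was called higher in TR9 (4.34% of genes) and 0 of the 4 members listed there were lower (2.31%).

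**Figure D2:**
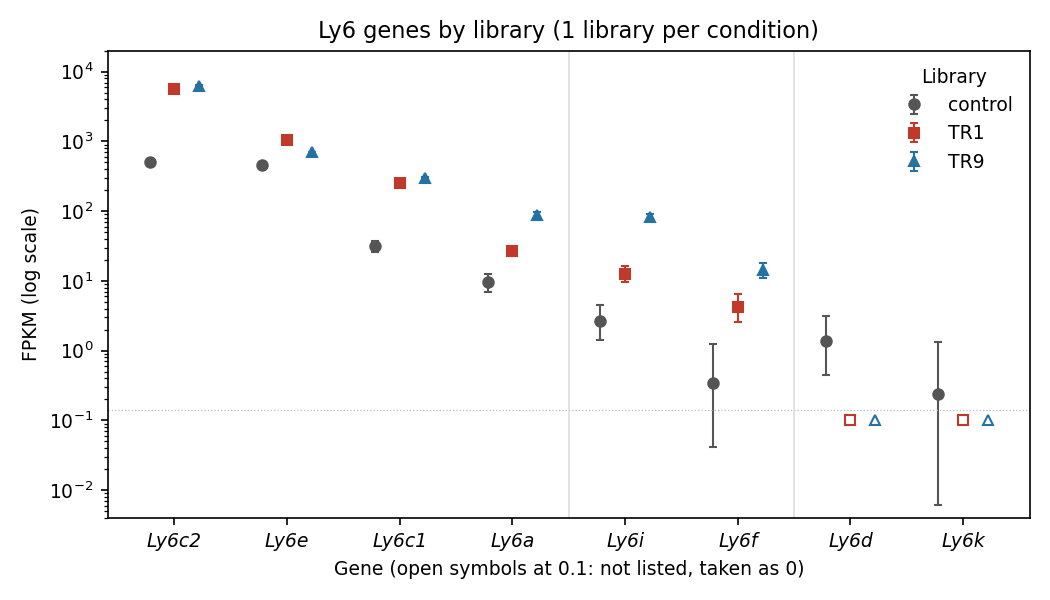
FPKM (log axis) of the Ly6 genes in the control, TR1 and TR9 libraries, 1 point per library, with bars for the 95% counting interval. Ly6c2 rises from 499.6 FPKM in control to 5593 in TR1 and 6296 in TR9, Ly6a climbs in 2 steps from 9.49 to 26.9 and 87.6, and Ly6d and Ly6k are listed in control only. Open symbols at 0.1 stand for genes not listed in a library.

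Ly6c2 encodes the Ly6c antigen of monocytes. Its expected count was 2339 in the control library, 26648 in that of TR1 and 27577 in that of TR9, or 499.6, 5593 and 6296 FPKM. Both leukemias were high and close to each other, and control was low. By FPKM Ly6c2 was the 118th gene of the control library, the 7th of TR1 and the 3rd of TR9, and its share of all counts went from 0.0426% to 0.478% and 0.538%. Its log2 ratio to control was 3.48 (3.42 to 3.55) in TR1 and 3.66 (3.59 to 3.72) in TR9. The leukemias differed by 0.17 (0.15 to 0.20), beyond counting error but too little for a call, and by 0.04 under TMM.

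Ly6c1 encodes the near-identical Ly6c antigen expressed in endothelium and other cells. Its expected counts of 116, 999.5 and 1092 in the same order of libraries gave 31.3, 251 and 296 FPKM. The order of the libraries was that of Ly6c2, at a much lower level. The log2 ratio of FPKM was 3.00 (2.72 to 3.29) in TR1 and 3.24 (2.97 to 3.53) in TR9, and the difference between the leukemias was 0.24 (0.11 to 0.37), not called. The mean transcript length that RSEM gave Ly6c1 was 701 bases for control, 738 for TR1 and 742 for TR9, and on the scale of counts the ratios were 3.08 and 3.33.

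The counts of the 2 genes moved nearly in proportion. Ly6c1 made up 4.73% (3.92 to 5.64) of their joint counts in control, 3.62% (3.40 to 3.84) in TR1 and 3.81% (3.59 to 4.04) in TR9. These intervals leave out the error of dividing shared reads. What part of the Ly6c1 counts came from Ly6c2 transcripts was not tested. Summed as 1 gene, they stood above control by 3.46 (TR1) and 3.63 (TR9) in log2, both called.

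The promoters of Ly6c1 and Ly6c2 are shown because the genes moved together, as the 250 bases before a transcription start in RefSeq (GRCm38.p6, minus strand, 5′ to 3′), at chr15:75048838-75049087 and chr15:75111972-75112221. Capitals mark the motif matches.
Ly6c1: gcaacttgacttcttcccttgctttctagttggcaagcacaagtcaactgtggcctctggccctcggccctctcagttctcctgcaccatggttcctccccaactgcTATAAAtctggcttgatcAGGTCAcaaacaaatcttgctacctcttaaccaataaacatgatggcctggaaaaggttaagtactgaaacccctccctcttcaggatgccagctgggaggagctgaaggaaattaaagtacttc
Ly6c2: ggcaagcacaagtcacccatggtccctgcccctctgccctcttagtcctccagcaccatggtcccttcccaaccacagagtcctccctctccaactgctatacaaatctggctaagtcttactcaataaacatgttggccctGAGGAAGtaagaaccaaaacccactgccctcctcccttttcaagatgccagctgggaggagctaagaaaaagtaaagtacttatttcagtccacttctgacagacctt

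The 2 windows were 57.7% identical over 284 aligned columns, far less than the coding sequences. On both strands, 6 motifs were searched: TTCNNNGAA (interferon-gamma activated site), the core of the interferon-stimulated response element, TTGCNNAA (C/EBP type), GAGGAAG (PU.1 type), TATAAA and AGGTCA (retinoic acid receptor half-site). The Ly6c1 window held TATAAA, found in 12.4% of 32851 promoter windows of this length, and AGGTCA, found in 14.0%, which began 143 and 125 bases before the start. The Ly6c2 window held GAGGAAG, found in 10.6%, from 108 bases before the start. RefSeq gives each gene a second start, whose windows overlap these and are not printed. GAGGAAG occurred in both of those as well, 127 bases before the start for Ly6c1 and 142 and 8 bases before it for Ly6c2, so it was not particular to Ly6c2. The Ly6c2 match at 142 bases is the printed site counted from the second start, and only that at 8 bases is a further site. The others, TTCNNNGAA (7.02% of windows), the response element core (2.98%) and TTGCNNAA (9.56%), did not occur in the 2 printed windows. A match is a string of letters and not a bound site.

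Ly6a, the stem cell antigen Sca-1, was the member that set TR9 apart from TR1. Its expected count was 50.02 for control, 145 for TR1 and 434 for TR9, and its level 9.49, 26.9 and 87.6 FPKM. The libraries stood in 3 separate steps with no overlap of their counting intervals, control lowest and TR9 highest. These intervals leave out the error of dividing shared reads. Of the Ly6a windows, 16.3% came within 2 mismatches of Ly6c1 and 10.7% of Ly6c2. What part of the Ly6a counts came from Ly6c1 or Ly6c2 transcripts was not tested. The log2 ratio of Ly6a to control was 1.503 (1.03 to 1.99) in TR1 and 3.21 (2.78 to 3.66) in TR9, and TR9 exceeded TR1 by 1.70 (1.43 to 1.99), which was called. By FPKM its rank went from 6953 in control to 2911 in TR1 and 743 in TR9.

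Ly6i and Ly6f, the genes most like Ly6a in coding sequence among those compared (86.4% and 84.4% identity), showed the same order of libraries. Ly6i had expected counts of 12.5 (control), 60 (TR1) and 365 (TR9), with log2 ratios to control of 2.24 (1.30 to 3.17) and 4.97 (4.12 to 5.83). Ly6f had 1.58, 20 and 62.5, with 3.62 (1.24 to 6.42) and 5.39 (3.12 to 8.11), where the wide intervals reflect the few counts in control. With control held at 3 counts, Ly6f was at least 6.57-fold higher in TR1 and 22.3-fold higher in TR9. Both were called higher in each leukemia, and TR9 exceeded TR1 by 2.73 (2.33 to 3.14) for Ly6i and 1.76 (1.01 to 2.56) for Ly6f, also called. Ly6i made up 20.01% (11.5 to 32.7) of the joint counts of Ly6i and Ly6a in control, 29.2% (23.1 to 36.0) in TR1 and 45.7% (42.2 to 49.2) in TR9. By counting error the share in TR9 was above both others. The expected counts of Ly6i thus did not keep a fixed ratio to those of Ly6a. These intervals leave out the error of dividing shared reads, whose size was not tested. Ly6f had no window shared letter for letter with another gene, but 4.71% of its windows came within 2 mismatches of another family gene. Its counts in control and TR9 were not whole.

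Ly6e, also called Sca-2 or TSA-1, is an antigen of immature thymocytes that affects the entry of several viruses and is induced by interferon. Its count was 4810 for control, 10981 for TR1 and 6822 for TR9, or 459.7, 1033 and 699 FPKM. TR1 was highest and TR9 lay between TR1 and control, an order no other member had. Its log2 ratio to control was 1.17 (1.12 to 1.22) in TR1, called, and 0.60 (0.55 to 0.66) in TR9, not called. TR9 was below TR1 by a log2 ratio of −0.56 (−0.61 to −0.52), under the size needed for a call. With TPM scaling, chosen after the data were seen, the TR1 ratio was 0.94 and the call was lost. Its counts were whole in each library.

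**Figure D3:**
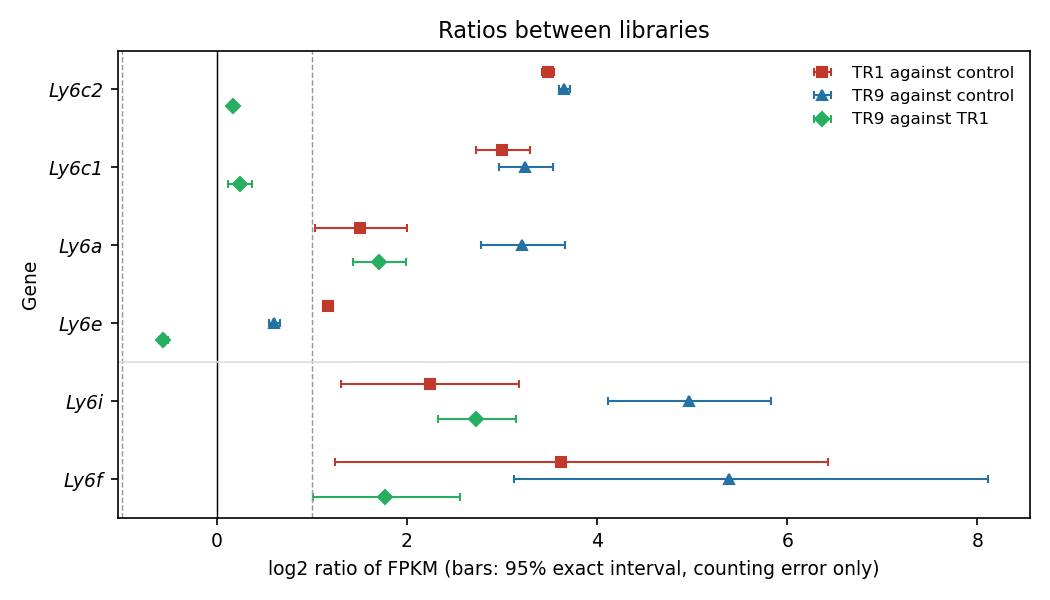
Log2 ratio of FPKM of each Ly6 gene with counts in the libraries compared, for TR1 and TR9 against control and for TR9 against TR1, with bars for the 95% counting interval and dashed lines at the ratio of 1 needed for a call. Ly6c1 and Ly6c2 lie near 3 or above against control and near 0 between the leukemias, Ly6a, Ly6i and Ly6f are higher in TR9 than in TR1, and Ly6e is higher in TR1.

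Ly6d, which marks lymphoid progenitors turning to the B lineage, and Ly6k, known from testis and sperm, were at the limit of detection. Ly6d had 5 counts in control (1.36 FPKM) and 0 in both leukemias, and was not called. The exact interval of its log2 ratio to control reached up to 0.10 in TR1 and 0.22 in TR9, so no difference was detectable at this depth. Ly6k had 1 count in control (0.24 FPKM) and 0 in the others, so no fold can be given.

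Compared per transcript length by FPKM, the order of levels in control was Ly6c2, Ly6e, Ly6c1, Ly6a, Ly6d and Ly6k. Ly6c2 (480 to 520 FPKM) and Ly6e (447 to 473) were close, and the intervals of Ly6d (0.44 to 3.17) and Ly6k (0.01 to 1.34) overlapped. In TR1 and TR9 the first 4 kept this order. Ly6c2 then stood far above Ly6e, and Ly6a remained last of those listed.

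The genes around the members did not move as a block. From Ly6d to Ly6c2, RefSeq lists 13 protein-coding genes, of which 10 had counts in a library. Among the neighbours with at least 1 FPKM in a library, Ly6i, Ly6f and Arc, a gene best known from neurons, with 0, 24 and 25 counts in control, TR1 and TR9, were called higher in both leukemias. Arc was at least 7.88-fold higher in TR1 and 8.92-fold higher in TR9. The others, Them6, Jrk, Zfp41, Top1mt, Zc3h3 and Ptp4a3, were not called in either. Them6, for example, had 165, 266 and 203 counts.

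**Figure D4:**
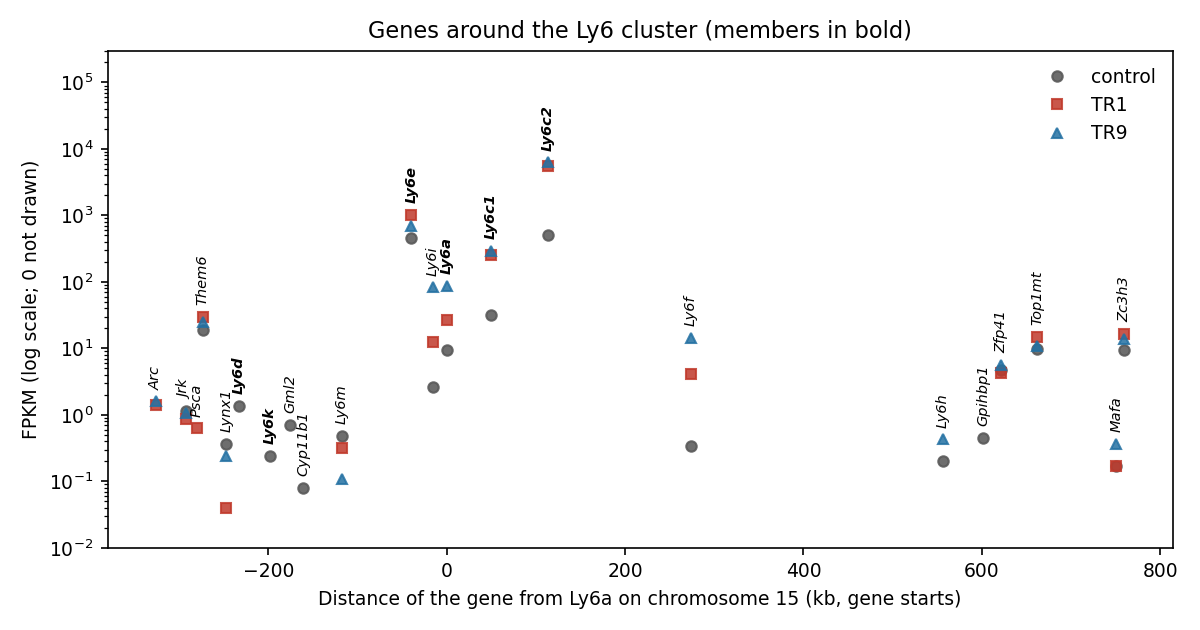
FPKM (log axis, 0 not drawn) in the control, TR1 and TR9 libraries of the genes around the Ly6 members, by the distance of their starts in kb from that of Ly6a on GRCm38, with 1 symbol per library and members in bold. At Ly6c1, Ly6c2, Ly6a, Ly6i and Ly6f the leukemia symbols lie well above the control symbol, while at genes such as Them6, Zfp41 and Top1mt the 3 symbols lie close together.

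Of 34 other genes grouped with the wider Ly6/uPAR family, whose mark is the three-finger fold, 22 were listed. In both leukemias 3 were called higher (Ly6i, Ly6f and Cd177) and 2 lower (Ly6g6f and Cd59a), beside 5.67% and 8.39% of all genes. Cd177, a neutrophil surface antigen, went from 8 counts in control to 1607 in TR1 and 1457 in TR9, with log2 ratios of 7.63 (6.65 to 8.84) and 7.61 (6.63 to 8.82). Ly6g6f, expressed in platelets, is despite its name an immunoglobulin-type protein without the three-finger fold. Its counts went from 48 to 0 in both, at least 16.2-fold and 14.95-fold lower. The median log2 ratio of the list, with genes of 3 counts or fewer held at 3 counts, was −0.02 in TR1 and 0.10 in TR9. Those are the values that a gene held at 3 counts in both libraries takes from the library totals alone. They therefore measure no change of the family and cannot be compared with the −0.10 and 0.07 of all genes treated alike. Without that bound the list median was −4.17 and −1.38, since 11 and 10 of the listed genes were at 0.

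All 28 genes that build and attach the GPI anchor were listed. In both leukemias 1 was called higher and 1 lower, where 5.67% and 8.39% of all genes were, so the list did not stand above the background. Piga, part of the enzyme that starts the anchor, was the one called higher, with 241, 1173 and 659 counts and log2 ratios of 2.26 (2.06 to 2.46) and 1.55 (1.33 to 1.77). Pigq, of the same enzyme, was the one called lower, with 1142, 368 and 420 counts. The list medians were −0.20 in TR1 and 0.14 in TR9. A further list was drawn up for other GPI-anchored proteins of blood cells, and 24 of its genes were listed. Some of these encode mouse proteins without this anchor. Among them are Ceacam1 and Ulbp1, called higher in both leukemias, and Treml2, called lower in TR9. The counts and medians of the list thus do not describe anchored proteins alone. Of the 24, 9 were called higher and 4 lower in TR1 (8.09% and 13.0% of all genes). In TR9, 4 were higher and 6 lower (9.37% and 10.8%). Thy1, an antigen of T cells and some progenitors, had 34, 1634 and 742 counts. Nt5e, the ecto-enzyme CD73, had 2, 204 and 149, while Alpl, an alkaline phosphatase, had 29, 0 and 0. The list medians were 0.93 and 0.34, and 0.66 and 0.34 with that bound.

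Since Ly6a and Ly6e are induced by interferon, the other interferon-stimulated genes were set beside them. All 33 were listed. In TR1, 9 were called higher and 2 lower with a median of 0.30, and in TR9, 15 were called higher and 3 lower with a median of 1.05. Of all genes 8.09% were higher and 13.0% lower in TR1, and 9.37% and 10.8% in TR9, so the lower calls were no more frequent than among all genes. Between the leukemias 8 were called higher in TR9 and 1 lower (4.34% and 2.31% of all genes), with a median of 0.92 beside 0.13 for all genes. Zbp1, a sensor of nucleic acids, had 9, 55 and 112 counts, Oas2, an antiviral synthetase, had 25, 773 and 557, and Iigp1, an interferon-induced GTPase, had 26, 0 and 2.62. Ly6a followed the order of Zbp1, and Ly6e, highest in TR1, that of Oas2. This match was picked after the values were seen. Few orders are possible with 3 libraries, so among 33 genes some match was to be found. The part of interferon in Ly6a or Ly6e was not tested.

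Marker lists of the cells that carry these antigens are given beside the 5.67% of all genes called higher and 8.39% called lower in both leukemias. Stem and progenitor markers, where Ly6a is the classical antigen, were lower in both leukemias for 13 of 20 and higher in both for 0, and their summed FPKM was 355 in control, 95.8 in TR1 and 92.2 in TR9. Slamf1 and Hoxa9 had 0 counts in both leukemias, and 9 of the 20 were at 0 in TR1 and 7 in TR9. All 20 had counts in control. Ly6a was called higher in the same libraries. Neutrophil markers were higher in both for 14 of 20 and lower for 0, with sums of 4256, 49732 and 32986, and none was at 0. Monocyte markers, given because Ly6c marks monocytes among other cells, were mixed, with 4 of 20 higher and 3 lower in both. Their sums were 831, 2036 and 1602, and none was at 0. Csf1r, the defining monocyte growth factor receptor, was lower, with 510, 141 and 81 counts, and Lyz2, lysozyme, was higher.

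For the markers of B-lineage progenitors, beside which Ly6d belongs, 1 of 17 was higher in both and 5 were lower. Dntt, the terminal transferase of these progenitors, had 155 counts in control and 0 in both leukemias, and Igll1 had 2, 63 and 847. The summed FPKM was 34.4, 22.1 and 202, with 9 of the 17 at 0 in TR1 and 8 in TR9. Of 18 endothelial markers, relevant to Ly6c1 and Ly6a, 1 was higher and 10 were lower in both, with sums of 153, 92.4 and 335. Kdr, the defining receptor, had 90, 0 and 0 counts and Pecam1, also made by blood cells, 746, 875 and 4338. Markers of T and NK cells (0 higher and 2 lower of 18, sums 106, 203 and 161), plasmacytoid dendritic cells (1 and 0 of 12, sums 144, 107 and 149), erythroid cells (0 and 17 of 18, sums 3426, 144 and 241) and megakaryocytes (0 and 15 of 16, sums 1317, 46.0 and 55.3) were counted alike. The part of these cell types in the Ly6 values was not tested.

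The genes with the most similar pair of log2 ratios to control were looked up among 9076 genes with at least 10 counts in every library. The distance in the plane of the 2 ratios rests on 3 libraries and is a description. Nearest to Ly6c2 were Glis3 (0.101), Trem1 (0.163) and Gfi1 (0.216). Trem1 is a receptor of neutrophils and monocytes and Gfi1 a repressor needed for neutrophil formation. Nearest to Ly6c1 were Rhoj (0.104), Fgl2 (0.175) and Tmem181c-ps (0.190). Ly6a had no neighbour as close, with Fmnl2 at 0.252, Tnfrsf1b, a receptor of tumor necrosis factor, at 0.286 and the class I gene H2-Q8 at 0.353. For Ly6e, with its smaller ratios, Gtf2f2 (0.00716), Itprip (0.0182) and Rpl30 (0.0437) were nearest.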

How the data were processed

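RNA of 3 libraries (control, TR1 and TR9; groups from the sample labels) was sequenced. Reads were filtered by the authors, aligned by BWA and Bowtie, and turned into gene levels by RSEM. Their processing notes name the build mm9, and software versions are not given in the sources used here. The deposited files give for each gene the expected count, which is not normalized and need not be whole, the FPKM, which RSEM scaled for length and library total, and the mean transcript length. Genes not listed in a file were taken as 0. Of 16742 IDs, 16698 matched the RefSeq table of GRCm38.p6, used for names and gene order. Coordinates are those of GENCODE M21 (GRCm38), coding sequences were read from its transcripts, and promoters came from RefSeq. Since the builds differ, these do not show where the authors' reads were placed.

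Pairs of libraries were compared on rounded expected counts, given the library totals, by an exact test of Poisson counts in scipy 1.17.1, adjusted (Benjamini-Hochberg) over every gene with a value in at least 1 of the pair. Log2 ratios were taken of FPKM, with a floor of 0.01. Intervals are 95% Clopper-Pearson, of the count ratio shifted to the FPKM ratio. A library with 3 counts or fewer was set to 3 counts for a lower bound of the fold. On simulated counts of 16282 genes for TR1 against control, 186 of 200 genes changed by 2 in log2 were called, and 0 unchanged genes. These counts were drawn with Poisson error alone, without variation between mice or reads divided among like genes. They cannot give the rate of false calls in unreplicated libraries. TMM used edgeR 4.0.16 in R 4.3.3. Windows of 50 bases were taken from the GENCODE transcripts paired with RefSeq.

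Members and lists were chosen with earlier results of these data known. Beside the members, the text names at most 3 genes per list, those with the largest mean ratio among genes called the same way in both leukemias, the 3 nearest patterns per member with at least 10 counts in every library and at least 5 FPKM in 1 of them, and neighbours with at least 1 FPKM. A gene named by this rule is not reported here. Cd59a, Pecam1, Igll1, Ceacam1, Ulbp1, Treml2 and the order of Zbp1 and Oas2 were picked after their values were seen. As alternatives, the FPKM floor was set to 0.001 or replaced by a pseudocount of 1, genes under 10 counts or 1 FPKM were left out, TMM scaling was used, edgeR's exact test was run at an assumed coefficient of variation of 0.2, and the thresholds were moved to a false discovery rate of 0.05 or a log2 ratio of 2. The last were Ly6c1 and Ly6c2 summed and, chosen after seeing the data, TPM scaling.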

Additional observations from a re-analysis of the deposited data

Results flagged for a closer look

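Among the Ly6 genes, 3 were flagged because their change against control differed between the leukemias. TR9 exceeded TR1 by a log2 ratio of 1.70 for Ly6a, 2.73 for Ly6i and 1.76 for Ly6f. These genes lie close together in sequence, and each leukemia is 1 library, so the difference is one between libraries with no spread between mice.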

How the results depend on the processing

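The 4 members called in TR1 became 2 with edgeR's exact test at an assumed variation of 0.2 and 2 with a log2 ratio of at least 2, since Ly6a (1.503) and Ly6e (1.17) lost the call in both. The 1 call between TR9 and TR1, Ly6a (1.70), became 0 in both. With TPM scaling Ly6e lost its TR1 call at 0.94. The 3 calls in TR9 held under each alternative run, where Ly6c1 and Ly6c2 summed counted as 1 called gene, and no member changed direction. Under TMM the early B markers higher in both leukemias went from 1 to 2 and the T and NK markers lower in both from 2 to 1. Interferon-stimulated genes higher in both went from 8 to 10, the list for other GPI-anchored proteins from 4 to 5 and monocyte markers from 4 to 5. Lower in both, monocyte markers went from 3 to 2, early B markers from 5 to 4 and endothelial markers from 10 to 9. Of all genes, edgeR called 657 higher and 992 lower in TR1, 717 and 830 in TR9, and 188 and 94 between TR9 and TR1. A log2 ratio of at least 2 left 685 and 1133, 737 and 928, and 283 and 135, beside 681 and 363 called between TR9 and TR1. No paired analysis was possible because each condition has 1 library, and for that reason no replicate could be left out. The depth limits Ly6d, Ly6k and the control value of Ly6f.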
